A study of Mus musculus with 12 samples.

Results

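The 36 genes described here are immediate early and early activation genes, chosen by name: Fos, Fosb, Fosl1, Fosl2, Jun, Junb, Jund, Atf3, Maff, Crem, Egr1, Egr2, Egr3, Nr4a1, Nr4a2, Nr4a3, Klf4, Klf6, Klf10, Myc, Dusp1, Dusp2, Dusp4, Dusp5, Dusp6, Ier2, Ier3, Ier5, Btg1, Btg2, Gadd45b, Zfp36, Zfp36l1, Cd69, Rgs1 and Rgs2. All 36 had a probe on the array, among 34821 gene names, and all 36 passed the filter on dim probes, which left 24964 genes in all. They were measured on 12 one-colour arrays of B cells purified from the spleens of female Balb/c mice. All cells had spent 2 days with a CD40 agonist, had received LPS for the last 5 hours, and were sorted by flow cytometry after a capture assay for secreted IL-10. The groups were cells that secreted IL-10 (IL-10+) from allergic mice exposed to house dust mite (HDM), IL-10+ cells from control mice, cells that did not secrete IL-10 (IL-10-) from HDM mice, and IL-10- cells from control mice, with 3 arrays each. Every group carried both stimuli, so that no comparison here is with resting cells. Whether the 3 samples of a group are separate animals or cultures is not in the labels, and the p-values reflect only the scatter among these samples, which may be technical. The cDNA had been amplified by PCR before labelling, and the age of the mice is not given in the labels.

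Immediate early genes are transcribed within minutes of a stimulus, without new protein synthesis, when kinase cascades act on transcription factors already present in the cell. In B cells, the antigen receptor, CD40 and Toll-like receptors such as the LPS receptor TLR4 all start such cascades. Many of the products are transcription factors (the AP-1, EGR, NR4A and KLF families and Myc) that act on a later wave of genes. Others, such as the DUSP phosphatases and the RNA-binding proteins Zfp36 and Zfp36l1, limit the response by removing phosphate from MAP kinases or by hastening mRNA decay. Most of the mRNAs are short-lived. The comparisons ask whether the genes differed between IL-10+ and IL-10- cells in each kind of mouse, and between HDM and control mice in each sorted population.

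None of the 36 genes passed the test in any of the 6 comparisons. In the values themselves, Nr4a1, Fosb and Dusp1 had lower mean levels in IL-10+ than in IL-10- cells in both kinds of mouse, and Jun had higher ones. In pools of sorted cells, fewer cells with a transcript and less of it per cell cannot be told apart. In HDM mice, 25 of the 36 genes (against 43.7% of all genes) had a lower mean in IL-10+ cells, with a median log2 fold change of -0.61 against 0.15 over all genes. In control mice 16 of the 36 (against 53.2% of all genes) were below 0, and the members had a median of 0.07, against -0.04 over all genes. The sign of that median turned in some settings. Without array IL-10+ control 2, 22 of the 36 were below 0 in control mice. Their median was then -0.28, against -0.02 over all genes. That fit kept array IL-10- control 2, although the genes' median difference from their own means was similarly high on both arrays (0.49).

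Promoter sequence from RefSeq (build GRCm38.p6) was at hand for 26 of the 36 genes, as windows from 250 bases before to 50 bases after an annotated start. The windows of Nr4a1, Fosb and Dusp1 are shown. These genes had the smallest p-values in the contrast of IL-10+ with IL-10- cells over both kinds of mouse. A window of Egr2 is shown because it holds the serum response element (CArG box) known from this gene family. Each is 5′ to 3′ on the gene's strand, and capitals mark matches to a searched motif.
Nr4a1 (chr15:101266596-101266895, + strand): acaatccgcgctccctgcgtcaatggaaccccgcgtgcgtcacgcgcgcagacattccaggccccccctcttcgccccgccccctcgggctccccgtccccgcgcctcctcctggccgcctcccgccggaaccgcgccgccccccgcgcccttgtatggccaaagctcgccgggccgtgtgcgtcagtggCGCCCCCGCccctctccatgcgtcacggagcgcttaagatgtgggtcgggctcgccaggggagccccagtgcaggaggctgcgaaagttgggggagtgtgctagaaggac
Fosb (chr7:19309996-19310295, - strand): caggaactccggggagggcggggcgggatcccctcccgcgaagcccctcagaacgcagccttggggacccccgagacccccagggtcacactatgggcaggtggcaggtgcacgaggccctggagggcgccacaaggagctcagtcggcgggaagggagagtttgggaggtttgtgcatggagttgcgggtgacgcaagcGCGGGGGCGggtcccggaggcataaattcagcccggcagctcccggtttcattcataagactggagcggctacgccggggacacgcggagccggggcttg
Dusp1 (chr17:26508423-26508722, - strand): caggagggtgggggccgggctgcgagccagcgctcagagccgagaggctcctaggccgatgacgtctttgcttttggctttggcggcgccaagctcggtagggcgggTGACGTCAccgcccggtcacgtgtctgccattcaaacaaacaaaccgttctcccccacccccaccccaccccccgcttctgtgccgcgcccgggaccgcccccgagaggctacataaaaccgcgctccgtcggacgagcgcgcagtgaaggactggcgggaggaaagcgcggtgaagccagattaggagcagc
Egr2 (chr10:67537619-67537918, + strand): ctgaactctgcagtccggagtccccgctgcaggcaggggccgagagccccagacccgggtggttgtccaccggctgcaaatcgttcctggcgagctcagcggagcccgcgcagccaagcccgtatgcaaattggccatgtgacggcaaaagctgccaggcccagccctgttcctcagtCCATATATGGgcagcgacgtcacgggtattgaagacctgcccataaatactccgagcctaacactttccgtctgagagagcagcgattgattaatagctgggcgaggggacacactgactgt
The motifs were searched on both strands. They were the cAMP response element (CRE, TGACGTCA), the AP-1 site TGANTCA, the CArG box, the EGR site GCGNGGGCG and the NR4A site AAAGGTCA. The EGR letters start at -60 relative to the start site in Nr4a1 and at -50 in Fosb. The CRE starts at -143 in Dusp1, and the CArG box at -72 in the Egr2 window shown. Egr2 has further windows, at other annotated starts. In these the same box starts at -73 or -133, a different CArG box starts at -72, or there is none. Among the 26 genes with a window, 11 (42.3%) held the EGR letters, against 6.27% of 27025 genes with a window. The 11 were Btg2, Dusp2, Fosb, Fosl2, Gadd45b, Klf4, Maff, Nr4a1, Nr4a2, Rgs2 and Zfp36. The CRE was in 3 windows (Btg2, Dusp1 and Maff), or 11.5% against 2.03%. The CArG box was in 3 (Dusp5, Egr2 and Zfp36), or 11.5% against 1.81%. The AP-1 letters were in 1 window, that of Zfp36l1, or 3.85% against 8.97%, and the NR4A letters in none, against 1.70%. The members' windows were also richer in G and C, with a median of 64.7% against 52.8%, and the EGR letters consist almost wholly of G and C. A gene was counted where any of its windows held the letters, and Btg2, Maff and Zfp36 each held 2 of the motifs.

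Levels are given as the log2 processed signal of a gene's probe minus the array's 75th percentile, so that 0 is the brightness at that percentile, and a level of one gene is not set against that of another. Differences are log2 fold changes with the standard error (SE) from limma, and adjusted p-values are Benjamini-Hochberg over all 24964 genes, with a call under 0.05. Il10, the transcript behind the sort, had levels of 6.92, 6.98 and 6.44 on the IL-10+ HDM arrays, against -0.07, 0.00 and -5.39 on the IL-10- HDM arrays, and 6.98, 7.64 and 6.94 on the IL-10+ control arrays, against 1.14, 0.73 and -0.01 on the IL-10- control arrays. All arrays thus followed their labels for the IL-10 sort. The labels of HDM and control mice were not checked in this way. B cell markers were measured by 7 of 7 genes, at least 6 of them well above background on every array, with a summed linear signal of 70.5 to 85.7 times the 75th percentile in IL-10+ HDM, 82.5 to 85.8 in IL-10+ control, 68.6 to 83.7 in IL-10- HDM and 60.9 to 70.0 in IL-10- control cells. T cell markers (5 of 7 tested) summed to 1.88 to 4.02 over all arrays. Of the tested ones, Cd3e, Cd4, Cd8a and Lck were well above background on 12 arrays and Cd3g on 10. Cd3d and Trat1, which were not tested, were so on 2 arrays each. Neutrophil markers (3 of 5 tested) summed to 0.0826 to 0.836, with S100a8 well above background on 0 arrays and Camp on 8. NK cell markers (2 of 4 tested) summed to 0.18 to 2.02, with Ncr1 well above background on 12 arrays and Gzma on 10. Erythroid markers (2 of 4 tested) summed to 0.118 to 2.42, with Hbb-b1 well above background on 0 arrays, Hba-a1 on 11 and Alas2 on 10. The myeloid list (6 of 7 tested) summed to 385 to 516 over all arrays, nearly all of it from Itgam, a gene of the integrin CD11b, and 0 of the tested markers of any list were called in any comparison. Emr1, a macrophage antigen with a probe well above background on 9 of 12 arrays, had a log2 fold change of IL-10+ over IL-10- cells of 4.05 (SE 0.67, adjusted p = 0.0584) in HDM mice and 0.82 (SE 0.67) in control mice, and 2.43 (SE 0.48, adjusted p = 0.0897) averaged. For HDM over control mice in IL-10- cells Emr1 had -3.69 (SE 0.67, adjusted p = 0.134). The myeloid list as a whole did not share the size of these values. For IL-10+ over IL-10- cells in HDM mice its 6 tested genes had a median of 0.04. Of them 4 were positive and 2 negative, with Cd68 at -0.81 (SE 0.71) and Itgam at 0.05 (SE 0.27). For HDM over control mice in IL-10- cells the median was -0.26, with 2 positive and 4 negative. Alas2, the erythroid haem synthesis gene, had 3.14 (SE 1.15, adjusted p = 0.321) in HDM and 1.19 (SE 1.15) in control mice. Hba-a1, the other erythroid marker tested, had the opposite sign, with -0.79 (SE 1.09) in HDM and -0.13 (SE 1.09) in control mice. The part of these marker genes in the results was not tested.

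Array IL-10- HDM 3 stood apart. Its mean correlation with the other arrays across genes was 0.775, against 0.867 to 0.901 for the others, and 47.7% of its gene spots were well above background, against 51.6% to 62.4%. It was the highest of the 12 arrays for 18 of the 36 members (50%), against 26.8% of all genes, and the lowest for 8 (22.2%), against 19.5%. The members' median difference from their own means was 0.71 there. The next 2 arrays in order of low detection, IL-10+ control 2 at 51.6% and IL-10- control 2 at 54.1%, had the next highest medians, both 0.49. The other 9 arrays lay between -0.34 and 0.33. The 3 arrays of lowest detection were therefore those with the highest levels of these genes, 1 in each of 3 groups and none in IL-10+ HDM cells; the part of detection in the results below was not tested. Values without 1 or all of these arrays are given beside several of the results below. The slides also differ between groups. Slide 1 held all IL-10+ arrays and IL-10- control 1 and 2, and slide 2 held IL-10- control 3 and the 3 IL-10- HDM arrays, so that in HDM mice the sort and the slide cannot be told apart.

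**Figure D1:**
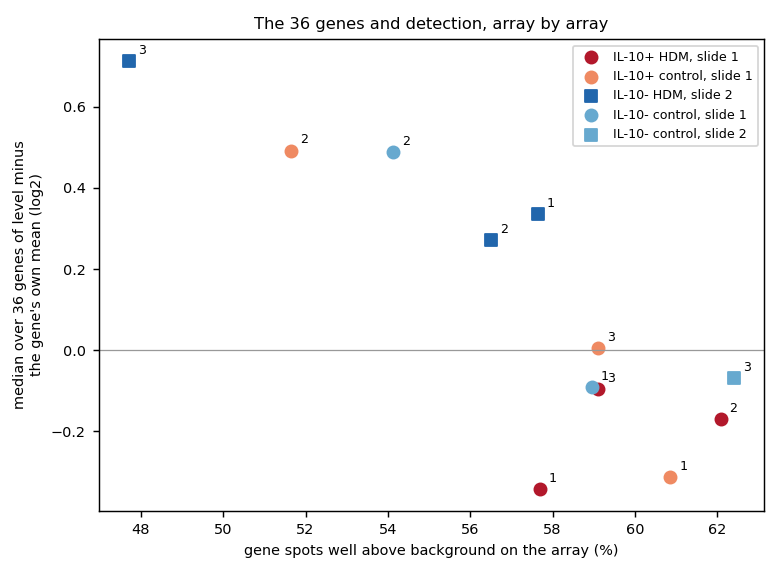
Median over the 36 genes of the level minus the gene's own mean (log2, vertical axis) against the share of gene spots well above background (%, horizontal axis), 1 point per array, coloured by group with the replicate number beside it. The 3 arrays of lowest detection (47.7%, 51.6% and 54.1%) have the highest medians, 0.71, 0.49 and 0.49.

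The first comparison set the 6 IL-10+ arrays against the 6 IL-10- arrays, averaged over HDM and control mice. Of all genes, 0.272% were called in either direction, and 0 of the 36 members. At an unadjusted p under 0.05, 7 members were lower in IL-10+ cells, against 3.62% of all genes, and 1 was higher, against 5.56%. The 7 were Nr4a1, Fosb, Dusp1, Myc, Egr1, Egr2 and Dusp2, and the 1 was Jun. Without the 3 arrays of lowest detection, 9 members were lower and 1 higher at that threshold and 0 were called. With the slide as a block, 1 member had an unadjusted p under 0.05. The share of all genes at that threshold is not given for these refits, so their counts cannot be read against it.

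Nr4a1 (Nur77, an orphan nuclear receptor that antigen receptor signals induce in lymphocytes) had the smallest p of the members. Its level was 0.72, 0.77 and 0.94 on the IL-10+ HDM arrays, against 2.45, 2.06 and 3.23 on the IL-10- HDM arrays. In control mice it was -0.13, 0.64 and 1.37 in IL-10+ cells, against 1.57, 2.42 and 2.27 in IL-10- cells. All 6 IL-10+ arrays thus lay below all 6 IL-10- arrays, which held for 1 of the 36 members and for 0.236% of all genes. The log2 fold change was -1.61 (SE 0.32, adjusted p = 0.0948), or 3.06 times lower in IL-10+ cells. It was -1.37 (SE 0.35) without the 3 arrays of lowest detection and -1.43 (SE 0.59, adjusted p = 0.679) with the slide as a block. The probe lies at chr15:101105071-101105130 on the array's build, mm9.

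Fosb, a FOS family partner of the JUN proteins, had levels of -0.21, 0.42 and 1.76 in IL-10+ HDM cells, against 2.37, 2.64 and 4.59 in IL-10- HDM cells. In control mice the levels were 1.76, 2.79 and 1.28 in IL-10+ cells, against 3.32, 3.41 and 3.36 in IL-10- cells. The groups did not overlap within either kind of mouse, and the IL-10- control arrays lay within 0.09 of each other. The averaged log2 fold change was -1.98 (SE 0.48, adjusted p = 0.171). It was -1.63 (SE 0.40) without array IL-10- HDM 3. The probe lies at chr7:19888168-19888227 (mm9).

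Dusp1, a nuclear phosphatase that inactivates p38 and JNK, had levels of -3.14, -1.02 and -1.77 in IL-10+ HDM cells, against 0.73, 0.06 and -0.07 in IL-10- HDM cells. In control mice the levels were -3.62, -0.41 and -3.06 in IL-10+ cells, against -0.58, -0.59 and 0.19 in IL-10- cells. Array IL-10+ control 2, one of those with low detection, was alone among the IL-10+ arrays in lying within the IL-10- range. On array IL-10+ control 1 the probe was not well above background. The averaged log2 fold change was -2.12 (SE 0.57, adjusted p = 0.235). Without array IL-10+ control 2 it was -2.61, with an adjusted p of 0.0495, the one setting in which a member was called; leaving out all 3 arrays of low detection gave -2.76 (SE 0.48, adjusted p = 0.118).

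Jun, the AP-1 subunit that FOS proteins pair with, was the one member with a higher level in IL-10+ cells at an unadjusted p under 0.05. Its levels were 4.94, 4.83 and 4.69 in IL-10+ HDM cells, against 3.54, 4.07 and 4.47 in IL-10- HDM cells. In control mice they were 4.47, 5.39 and 5.02 in IL-10+ cells, against 4.03, 4.52 and 4.05 in IL-10- cells. The groups did not overlap in HDM mice and overlapped by 1 array in control mice. The averaged log2 fold change was 0.78 (SE 0.25, adjusted p = 0.358), and 0.86 (SE 0.22) without the 3 arrays of lowest detection. The probe lies at chr4:94716928-94716987 (mm9).

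Myc, the growth regulator that B cells induce on activation, had levels of 5.04, 5.05 and 5.17 in IL-10+ HDM cells, against 5.89, 5.77 and 6.45 in IL-10- HDM cells. In control mice they were 4.78, 5.74 and 5.01 in IL-10+ cells, against 5.40, 6.03 and 5.40 in IL-10- cells. The averaged log2 fold change was -0.69 (SE 0.25, adjusted p = 0.432), with overlap in control mice through array IL-10+ control 2. Egr1, a zinc finger factor downstream of ERK, had levels of 3.69, 3.47 and 3.87 in IL-10+ HDM cells, against 4.75, 4.63 and 6.18 in IL-10- HDM cells. In control mice they were 3.15, 4.80 and 3.57 in IL-10+ cells, against 4.24, 4.81 and 3.90 in IL-10- cells. Here too the control groups overlapped through array IL-10+ control 2 alone, and the averaged log2 fold change was -0.99 (SE 0.38, adjusted p = 0.461). Egr2, its relative that restrains lymphocyte activation, had levels of 2.67, 2.32 and 3.04 in IL-10+ HDM cells, against 3.78, 3.73 and 4.94 in IL-10- HDM cells. In control mice they were 2.34, 3.74 and 2.60 in IL-10+ cells, against 2.56, 3.67 and 3.15 in IL-10- cells. The arrays overlapped in control mice, and the averaged log2 fold change was -0.86 (SE 0.35, adjusted p = 0.510). Dusp2 (PAC-1), a MAP kinase phosphatase of activated lymphocytes, had levels of 3.46, 2.95 and 4.01 in IL-10+ HDM cells, against 4.27, 4.79 and 5.64 in IL-10- HDM cells. In control mice they were 2.37, 4.16 and 3.26 in IL-10+ cells, against 3.56, 4.22 and 3.17 in IL-10- cells. Its averaged log2 fold change was -0.91 (SE 0.39, adjusted p = 0.528), and without the 3 arrays of lowest detection it was -0.80 (SE 0.32).

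**Figure D2:**
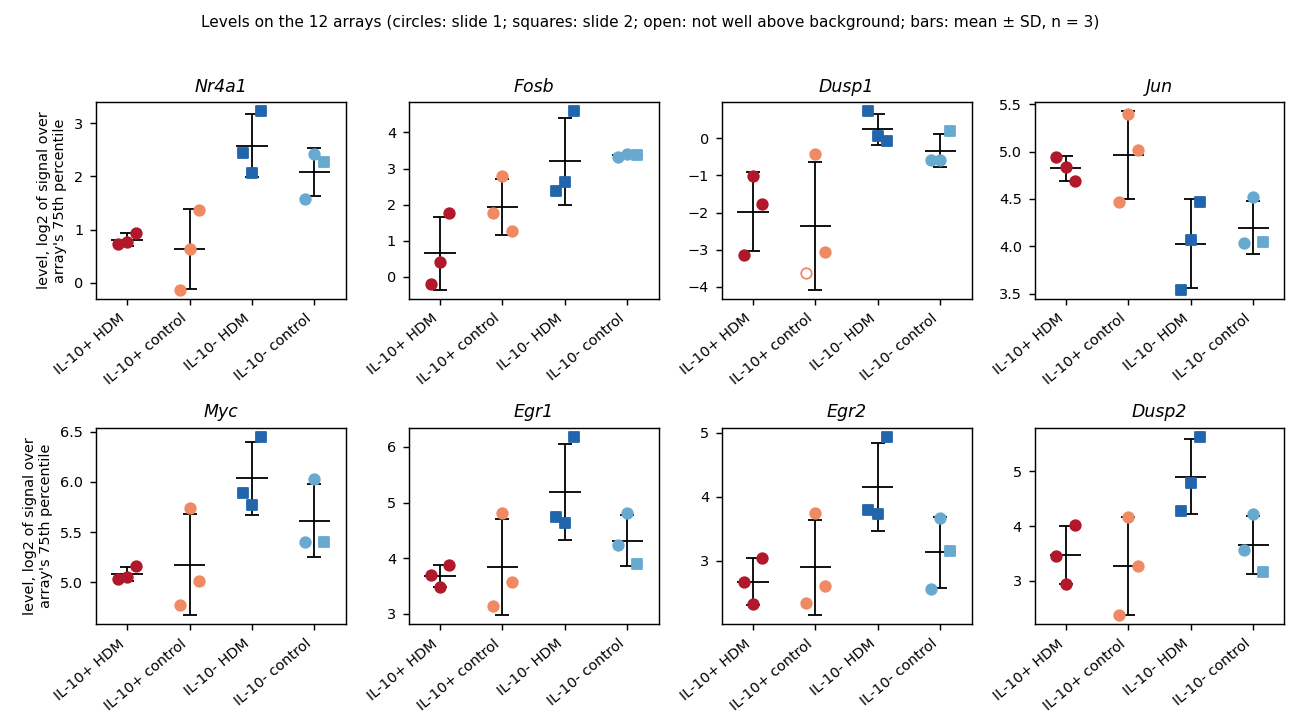
Levels of the 8 genes with the smallest p in the averaged contrast (log2 of signal over the array's 75th percentile), 1 point per array, with the mean and SD of 3 arrays as bars. All 6 Nr4a1 values of IL-10+ cells lie below all 6 of IL-10- cells. The highest value of Nr4a1, Fosb, Egr1, Egr2, Myc and Dusp2 is on array IL-10- HDM 3.

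The other members are given by family, for the same averaged contrast. Over all members 25 of 36 were below 0, against 47.7% of all genes. Of the 10 AP-1 and related bZIP genes, 7 had a negative and 3 a positive log2 fold change, with a median of -0.29, against 0.03 over all genes. The FOS members Fosl1 and Fosl2 had values of -0.27 (SE 0.31) and -0.31 (SE 0.25). Fos itself had a log2 fold change of -0.75 (SE 0.55), and its levels were -0.10, -0.47 and 1.27 in IL-10+ HDM cells, against 1.61, 0.59 and 3.43 in IL-10- HDM cells. Fos thus overlapped between these groups and spread over about 3 log2 units within IL-10- HDM cells. In control mice Fos had 0.95, 1.84 and 0.89 in IL-10+ cells, against 0.51, 2.18 and 0.54 in IL-10- cells, with overlapping arrays. Junb, which like Jun pairs with FOS proteins, had -0.34 (SE 0.23). Atf3, a stress-induced factor, had -0.27 (SE 0.53), the small MAF protein Maff 0.70 (SE 0.53), and Crem, which encodes CREM and the repressor ICER, 0.03 (SE 0.77). Crem had 3 further probes, with values of -0.17 to 0.40.

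Among the receptors and zinc finger factors, the values had larger errors. Nr4a3 had a log2 fold change of 0.39 (SE 0.33), and Nr4a2 -0.16 (SE 1.17), with a probe well above background on 8 of 12 arrays. Egr3 had 1.53 (SE 0.97), with 1 array far below the rest: its level was 0.78, 0.98 and 1.46 in IL-10+ HDM cells, against 1.55, -0.11 and -5.27 in IL-10- HDM cells, the last of them not well above background. Without that array the averaged value of Egr3 was 0.54 (SE 0.42). In control mice Egr3 had 0.58, 1.91 and 1.23 in IL-10+ cells, against 0.73, -0.27 and 1.12 in IL-10- cells. The Krüppel-like factors Klf4, Klf6 and Klf10, which tend to restrain proliferation, had values of -1.15 (SE 0.82), -0.03 (SE 0.49) and -0.48 (SE 0.63). All 4 genes of the group of KLF factors and Myc were below 0.

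The 5 MAP kinase phosphatase genes had values of both signs. Dusp1 and Dusp2 were the 2 with negative values, and Dusp4, Dusp5 and Dusp6 had values of 0.27 (SE 0.30), 0.36 (SE 0.23) and 0.28 (SE 0.62). Dusp4 levels lay between 4.08 and 5.63 on all arrays, the lowest on IL-10- HDM 3. Of the 6 IER, BTG and GADD45 genes, 4 had negative and 2 positive values, with a median of -0.16. Ier2, a short-lived nuclear protein, had -0.42 (SE 0.28), the survival-linked Ier3 -1.05 (SE 1.58) and Ier5 0.08 (SE 0.41). Ier3 was well above background on 5 of 12 arrays, and its errors were the largest of the members. Without array IL-10- HDM 3 the value of Ier3 was 0.19 (SE 1.26). The antiproliferative genes Btg1 and Btg2 had -0.15 (SE 0.36) and -0.18 (SE 0.48), the value of Btg2 being 0.16 (SE 0.41) without array IL-10- HDM 3, and the stress sensor Gadd45b 0.04 (SE 0.21). A second Btg1 probe had 1.36 (SE 1.04) and a second Ier5 probe -1.31 (SE 1.19), both with larger errors and of opposite sign to the probe used.

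The mRNA decay factors Zfp36 (tristetraprolin) and Zfp36l1 had log2 fold changes of -0.84 (SE 0.54) and -0.45 (SE 0.26). Of the genes for surface proteins and G protein regulators, Cd69, the early activation antigen that holds lymphocytes in tissue, had -0.22 (SE 0.30). Rgs1, which dampens chemokine receptor signals in B cells, had -0.67 (SE 0.31, adjusted p = 0.564), and Rgs2 0.88 (SE 1.54). Rgs2 had a level of -6.14 on array IL-10- HDM 3, where it was not well above background, and of 2.54 to 4.46 on the other 11. Without that array the value of Rgs2 was -0.81 (SE 0.35), of the opposite sign. Gadd45b had the smallest spread between arrays of a group (SD 0.25), and Ier3 (SD 3.06) and Rgs2 (SD 2.98) the largest. The median SD within groups was 0.70 for the members and 0.81 for all genes.

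**Figure D3:**
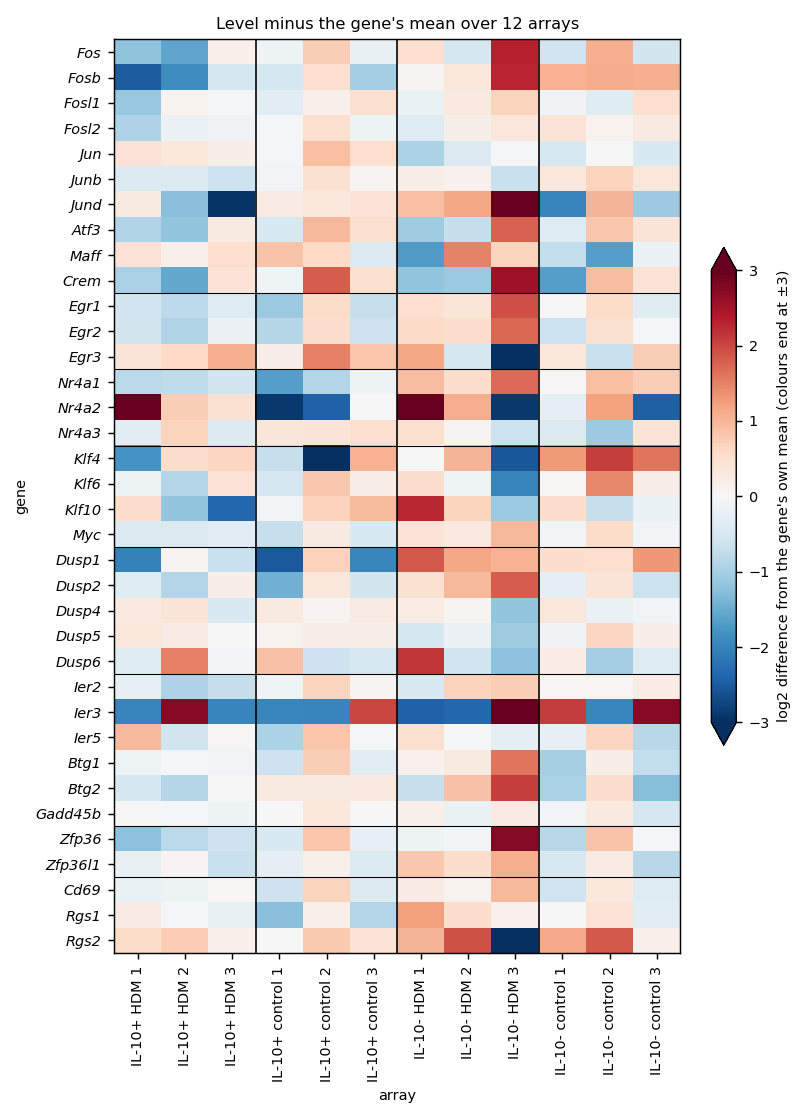
Level of each of the 36 genes on each of the 12 arrays minus the gene's own mean (log2, colours end at ±3), with genes grouped by family and arrays by group. Array IL-10- HDM 3 is the highest of the 12 for 18 genes and the lowest for 8. On the 3 IL-10+ HDM arrays 11, 14 and 14 genes are above their own mean. The count is 9 on IL-10+ control 1, 14 on IL-10- control 1, 16 on IL-10- control 3 and 19 to 31 on the remaining arrays.

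In HDM mice alone, 3 IL-10+ arrays were set against 3 IL-10- arrays. Of all genes, 0.168% were called, and 0 of the 36 members. At an unadjusted p under 0.05, 11 members (30.6%) were lower in IL-10+ cells, against 5.65% of all genes, and 1 (2.78%) was higher, against 7.61%. The arrays did not overlap for 12 lower members (33.3%), against 11.4% of all genes: Fosb, Jund, Egr1, Egr2, Nr4a1, Myc, Dusp1, Dusp2, Btg1, Zfp36, Zfp36l1 and Cd69. They did not overlap for 2 higher members (5.56%), Jun and Dusp5, against 11.2% of all genes. Without the 3 arrays of lowest detection, 12 members were lower and 1 higher at an unadjusted p under 0.05. With the detection share as a covariate, 3 were lower and 1 higher. With the slide as a block 1 was lower. In both, 0 members were called. For these refits the share of all genes at that threshold is not given, so their counts cannot be read against it. The slide and the sort coincide in these mice, so the block takes the slide effect from IL-10- control cells alone.

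Nr4a1 had the smallest p in HDM mice too, with a log2 fold change of -1.77 (SE 0.46, adjusted p = 0.200). Fosb had -2.54 (SE 0.68, adjusted p = 0.218), and -1.85 (SE 0.56) without the 3 arrays of lowest detection. Jund, the JUN protein that resting cells already hold and that slows growth, had levels of -2.36, -3.88 and -5.56 in IL-10+ HDM cells, against -1.71, -1.47 and 0.36 in IL-10- HDM cells. The groups did not overlap, but the signal was dim: the probe was well above background on 1 of 3 IL-10+ HDM arrays and on 3 of 3 IL-10- HDM arrays. The log2 fold change of Jund was -2.99 (SE 0.94, adjusted p = 0.266). Egr2 had -1.48 (SE 0.50, adjusted p = 0.300) and Egr1 -1.51 (SE 0.54, adjusted p = 0.316). These values were -1.08 (SE 0.32) for Egr2 and -1.01 (SE 0.28) for Egr1 without the 3 arrays of lowest detection. The level of Zfp36l1 was 2.45, 2.75 and 2.00 in IL-10+ HDM cells, against 3.47, 3.18 and 3.75 in IL-10- HDM cells. All 3 IL-10+ arrays were below all 3 IL-10- arrays, with a log2 fold change of -1.07 (SE 0.37, adjusted p = 0.308).

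The other members in HDM mice ranged widely. Those with an unadjusted p under 0.05 besides these 6 were Dusp1 at -2.22 (SE 0.80), Myc at -0.95 (SE 0.36), Dusp2 at -1.43 (SE 0.55), Ier2 at -0.95 (SE 0.40), Zfp36 at -1.73 (SE 0.77) and, in the other direction, Dusp5 at 0.80 (SE 0.33), with adjusted p-values of 0.320 to 0.373. Zfp36 levels were -2.17, -1.74 and -1.55 in IL-10+ HDM cells, against -1.08, -1.01 and 1.83 in IL-10- HDM cells, where the highest was array 3. Cd69 had levels of 4.21, 4.24 and 4.46 in IL-10+ HDM cells, against 4.66, 4.51 and 5.37 in IL-10- HDM cells, a log2 fold change of -0.54 (SE 0.43). Cd69 and Btg1 (-0.75, SE 0.51) did not overlap between the groups and had adjusted p-values of 0.580 and 0.527.

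In control mice, 0.016% of all genes were called, and 0 of the 36 members. At an unadjusted p under 0.05, 3 members (8.33%) were lower in IL-10+ cells, against 1.83% of all genes, and 0 higher, against 2.26%. The 3 were Nr4a1, Dusp1 and Klf4. The arrays did not overlap for 3 lower members (8.33%), Fosb, Nr4a1 and Klf4, against 4.83% of all genes, and for 0 higher, against 4.72%. The log2 fold change of Nr4a1 was -1.46 (SE 0.46, adjusted p = 0.918), that of Dusp1 -2.03 (SE 0.80, adjusted p = 1.00), that of Jun 0.76 (SE 0.36, adjusted p = 1.00) and that of Fosb -1.42 (SE 0.68). On the arrays of slide 1 alone, Nr4a1 had -1.37 (SE 0.51), Dusp1 -1.77 (SE 1.01) and Jun 0.69 (SE 0.38).

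Klf4, a Krüppel-like factor that restrains B cell proliferation, had levels of -3.69, -6.16 and -1.96 in IL-10+ control cells, against -1.71, -0.92 and -1.40 in IL-10- control cells. The groups did not overlap, and the probe was well above background on 2 of 3 IL-10+ arrays and 3 of 3 IL-10- arrays. The log2 fold change was -2.59 (SE 1.16, adjusted p = 1.00). Without the 3 arrays of lowest detection, which include the IL-10+ array at -6.16, it was -1.27 (SE 0.95). In HDM mice Klf4 had -4.77, -2.47 and -2.35 in IL-10+ cells, against -2.99, -1.98 and -5.53 in IL-10- cells, with a log2 fold change of 0.30 (SE 1.16), and -0.71 (SE 1.14) without array IL-10- HDM 3.

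Taking the sign in each kind of mouse, 11 of the 36 members (30.6%) had lower means in IL-10+ cells in both, against 24.5% of all genes. They were higher in both for 6 (16.7%), against 27.5%, and lower in HDM but higher in control mice for 14 (38.9%), against 19.3%. The remaining 5 were higher in HDM and lower in control mice. These counts moved with the arrays used: without array IL-10+ control 2, 16 members (44.4%) were lower in both, against 27.7% of all genes, and 9 (25%) lower in HDM but higher in control mice, against 16.0%. Without the 3 arrays of lowest detection the same counts were 17 (47.2%, against 26.0%) and 12 (33.3%, against 18.9%). The difference of the contrast between the mice was itself fitted. In that comparison 0.012% of all genes were called, and 0 of the 36 members. The members' median was -0.58, against 0.14 over all genes, and 26 of 36 were below 0, against 44.5% of all genes. At an unadjusted p under 0.05, 2 members were below 0, Jund and Zfp36l1, against 1.98% of all genes, and 0 above, against 4.45%. With the detection share as a covariate the median was -0.077.

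Jund had a difference of -4.01 (SE 1.33, adjusted p = 0.737). The size is uncertain, since the probe was not well above background on arrays IL-10+ HDM 2 and 3 and IL-10- control 1, which hold its lowest levels, and with normexp background correction the value was -1.55. In control mice its levels were -2.38, -2.32 and -2.21 in IL-10+ cells, against -4.63, -1.61 and -3.71 in IL-10- cells, a log2 fold change of 1.01 (SE 0.94). The sign in control mice was thus opposite to that in HDM mice, with overlapping groups. Zfp36l1 had a difference of -1.25 (SE 0.53, adjusted p = 0.759), with levels of 2.38, 2.83 and 2.26 in IL-10+ control cells, against 2.18, 2.91 and 1.84 in IL-10- control cells. Btg2 had -2.05 (SE 0.96, adjusted p = 0.759). Its levels were 0.11, -0.25 and 0.60 in IL-10+ HDM cells, against -0.09, 1.47 and 2.69 in IL-10- HDM cells, and 0.87, 0.86 and 0.90 in IL-10+ control cells, against -0.37, 1.12 and -0.68 in IL-10- control cells. Btg2 was thus nearly level across the 3 IL-10+ control arrays and spread over about 3 log2 units in IL-10- HDM cells. Dusp5 had 0.87 (SE 0.47, adjusted p = 0.759), a value that became -0.045 when each array was centred on its median in place of its 75th percentile.

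**Figure D4:**
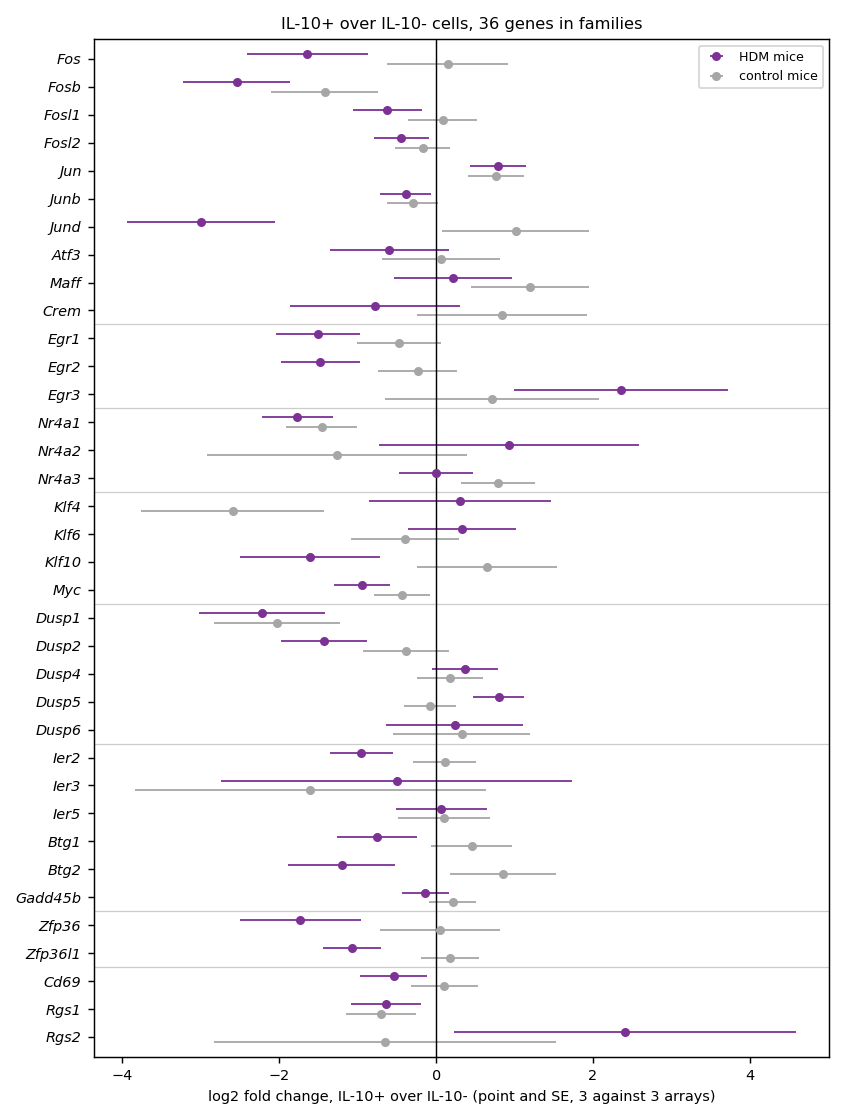
Log2 fold change of IL-10+ over IL-10- cells with its SE for each of the 36 genes, in HDM mice and in control mice (3 arrays against 3 in each). In HDM mice 25 of 36 values are below 0, and in control mice 16.

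HDM and control mice were then compared within each sorted population. These comparisons use the same arrays as those of the sort. In IL-10+ cells, all on slide 1, 0.00401% of all genes (1 gene) were called, and 0 of the 36 members. At an unadjusted p under 0.05, 0 members were higher or lower, against 1.59% and 0.665% of all genes. The members' median was -0.15, against 0.07 over all genes, and 23 of 36 were below 0, against 44.5% of all genes. The arrays did not overlap for 5 lower members (13.9%), against 3.72% of all genes: Junb, Ier2, Btg2, Gadd45b and Zfp36. They did not overlap for 1 higher member (2.78%), Nr4a2, against 5.85%. Gadd45b was separated narrowly, with a highest IL-10+ HDM level of 5.766 against a lowest IL-10+ control level of 5.7695. Its log2 fold change was -0.18.

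Ier2 had levels of 1.18, 0.49 and 0.71 in IL-10+ HDM cells, against 1.29, 2.10 and 1.49 in IL-10+ control cells. The log2 fold change was -0.83 (SE 0.40, adjusted p = 1.00). Junb had levels of 2.13, 2.12 and 1.92 in IL-10+ HDM cells, against 2.47, 3.02 and 2.64 in IL-10+ control cells. These groups did not overlap, and the log2 fold change was -0.66 (SE 0.33, adjusted p = 1.00). Fosb had -1.29 (SE 0.68, adjusted p = 1.00). For these 3 genes array IL-10+ control 2 was the highest of the control arrays. Without the 3 arrays of lowest detection the values were -0.60 (SE 0.41) for Ier2, -0.51 (SE 0.23) for Junb and -0.86 (SE 0.56) for Fosb. Nr4a2 (Nurr1) had levels of 0.52, -2.40 and -2.68 in IL-10+ HDM cells, against -6.02, -5.54 and -3.12 in IL-10+ control cells. The probe was well above background on 3 of 3 HDM arrays and on 1 of 3 control arrays, and the log2 fold change was 3.37 (SE 1.66, adjusted p = 1.00). A second Nr4a2 probe had a value of -1.96 (SE 1.69), of the opposite sign. The value was 0.71 for the mean of both Nr4a2 probes and 1.09 with normexp background correction, and without array IL-10+ HDM 1 it was 2.36.

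In IL-10- cells, 0.0481% of all genes were called, and 0 of the 36 members. At an unadjusted p under 0.05, 4 members (11.1%) were higher in HDM mice, against 3.72% of all genes, and 1 (2.78%) was lower, against 5.40%. The 4 were Zfp36l1, Jund, Btg1 and Dusp2, and the 1 was Dusp5. The members' median was 0.39, against -0.04 over all genes, and 12 of 36 were below 0, against 51.9% of all genes. With the detection share as a covariate the median was 0.043. The arrays did not overlap for 3 higher members (8.33%), Egr2, Dusp2 and Zfp36l1, against 5.68% of all genes, and for 3 lower members (8.33%), Junb, Klf4 and Dusp5, against 6.16%. All 3 HDM arrays were on slide 2 and 2 of the 3 control arrays on slide 1.

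Zfp36l1, which promotes decay of AU-rich mRNAs, had levels of 3.47, 3.18 and 3.75 in IL-10- HDM cells, against 2.18, 2.91 and 1.84 in IL-10- control cells. The log2 fold change was 1.16 (SE 0.37, adjusted p = 0.444). It was 1.32 (SE 0.34) without the 3 arrays of lowest detection and 1.63 (SE 0.63) on the 4 arrays of slide 2. There the 1 control array, at 1.84, was the lowest of the 3. The SE comes from the spread of the 3 HDM arrays, which limma moderates with the spread of all genes tested. The lone array is thus assumed to vary like them. Dusp5, a nuclear phosphatase of ERK, had levels of 2.56, 2.91 and 2.02 in IL-10- HDM cells, against 2.98, 3.72 and 3.29 in IL-10- control cells. Its log2 fold change was -0.84 (SE 0.33, adjusted p = 0.511), and -0.40 (SE 0.29) without the 3 arrays of lowest detection. Jund had a log2 fold change of 2.38 (SE 0.94, adjusted p = 0.513), with 1 of the 3 IL-10- control arrays not well above background. Btg1 had levels of 3.63, 3.76 and 5.11 in IL-10- HDM cells, against 2.49, 3.67 and 2.77 in IL-10- control cells. Its log2 fold change was 1.19 (SE 0.51, adjusted p = 0.538), with overlapping arrays, and 0.72 (SE 0.47) without array IL-10- HDM 3.

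**Figure D5:**
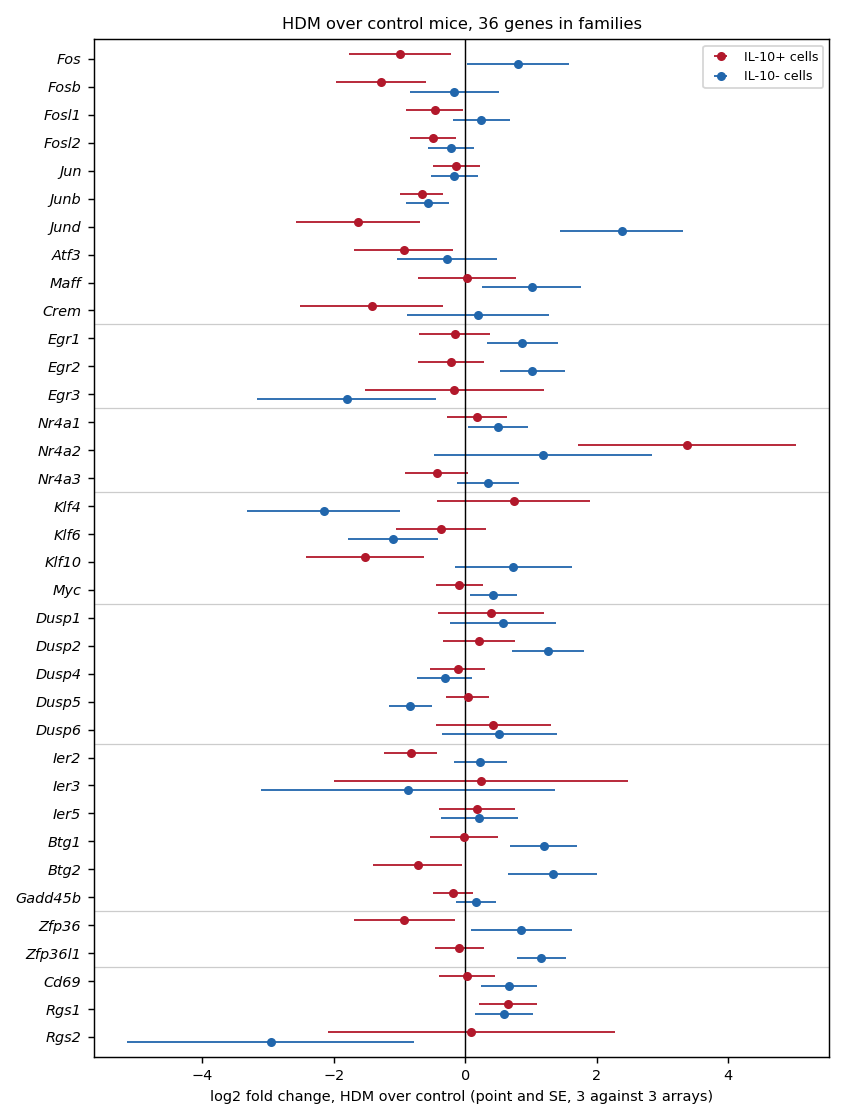
Log2 fold change of HDM over control mice with its SE for each of the 36 genes, in IL-10+ cells and in IL-10- cells (3 arrays against 3 in each). In IL-10+ cells 23 of 36 values are below 0, and in IL-10- cells 12.

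Genes around the members in the same pathways were counted from 4 lists, for the averaged contrast of IL-10+ over IL-10- cells; 0 of their genes were called in any of the 6 comparisons. Of 43 other early response genes tested, 19 had positive and 24 negative values, with a median of -0.09. Among them were Rhob, a small GTPase, at -1.41 (adjusted p = 0.118), Cish, an inhibitor of cytokine signalling, at 1.66 (adjusted p = 0.244), and Klf2, a quiescence factor, at -2.60 (adjusted p = 0.337). Of 15 factors of the SRF, TCF, CREB and MEF2 families, which bind the promoters of immediate early genes, 11 had positive and 4 negative values, with a median of 0.18. Mef2d had -1.29 (adjusted p = 0.205), Crtc2 -1.02 (adjusted p = 0.242) and Elk3 1.21 (adjusted p = 0.245). Of 25 genes of the MAP kinase cascade, 15 had positive and 10 negative values, with a median of 0.23, and of 11 bZIP partners of AP-1, 7 had positive and 4 negative values, with a median of 0.25. Bach2, a repressor that competes at AP-1-like sites in B cells, had 2.89 (adjusted p = 0.378) averaged, with 5.56 (SE 1.37, adjusted p = 0.178) in HDM mice and 0.22 (SE 1.37) in control mice. The difference of Bach2 between the mice was 5.34 (SE 1.94, adjusted p = 0.759). These medians stand beside -0.29 for the 36 members and 0.03 for all genes.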

How the data were processed

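Gene expression was measured on 12 one-colour arrays (Agilent design 028005, annotated on mm9), per the file headers. Per the labels, the authors amplified bead-isolated mRNA by PCR as cDNA and labelled it with Cy3. The deposited scanner files hold the processed signal as an intensity, already background-subtracted by Agilent Feature Extraction 10.7.3.1, per the file headers, together with flags of other kinds for each spot. The deposited value table holds a ratio, each spot's processed signal over the array's median. This was found by recomputation, with a largest deviation of 0.00077%.

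From these, the processed signal of 55681 probes was taken to log2 and scaled to each array's 75th percentile. Probes well above background on at least 3 of 12 arrays were kept (37649), and 84 were left out as spot outliers. The probe with the highest mean stood for a gene (24964 genes). The files give the probes' positions; whether they lie in an exon or UTR was not looked up, as no annotation of mm9 was used. limma 3.58.1 in R 4.3.3 (lmFit, eBayes) fitted 1 mean per group (residual df 8, prior df 2.13, prior SD 0.649), and Benjamini-Hochberg adjustment ran over all genes tested. The fit was tested on simulated data. Arrays give no counts, so their number limits the precision; 29 members were well above background on all 12 arrays.

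The members, gene lists and tests were chosen with earlier results of these data known. Named with every array's value were the called members or, as there were none, those with the smallest p: 8 in the averaged contrast, 6 in HDM mice and 4 in each other comparison; other members with array values were picked after their values were seen. Replicate numbers were checked as pairs. Deviations of same-numbered IL-10+ and IL-10- arrays correlated at 0.02, 0.03 and 0.07 in HDM mice and 0.11, 0.15 and 0.03 in control mice. Those of unlike-numbered arrays correlated at -0.046 to 0.025 in HDM mice and -0.194 to 0.088 in control mice. The arrays were not treated as pairs, and no fit with pairs within each kind of mouse was run. The replicate block joins the same number over all 4 groups. Alternatives covered normalization, background correction, probe filter and choice, array weights, slide, replicate number, the arrays in the fit, and 2 settings on detection added after seeing the data.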

Additional observations from a re-analysis of the deposited data

How the results depend on the processing

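Each comparison was refitted under up to 25 alternatives. The count of members called stayed at 0 in all but 1: without IL-10+ control 2, 1 member (Dusp1, -2.61) was called in the averaged contrast. The count of all genes called was 68 in the averaged contrast and 42 in HDM mice, 0 in both with the slide as a block, and 137 and 206 without IL-10- HDM 1; it was 12 for HDM over control in IL-10- cells, and 0 and 130 in the same settings. Elsewhere it was 4 (0 to 11) in control mice, 1 (0 to 6) for HDM in IL-10+ cells and 3 (0 to 13) for the difference. Over settings that leave out 1 array, the members' median ranged from -0.42 to -0.22 in the averaged contrast, from -0.82 to -0.47 in HDM mice, from -0.28 (without IL-10+ control 2) to 0.19 in control mice, from -0.40 to 0.00 for HDM over control in IL-10+ cells, from 0.20 to 0.46 in IL-10- cells and from -0.76 to -0.32 for the difference of the contrast. Centring each array on its median gave medians of -0.60 (averaged), -1.39 (HDM mice), 1.03 (HDM over control in IL-10- cells) and -1.50 (difference), while the median of all genes became -0.29, -0.63, 0.60 and -0.78 in the same comparisons. Under it, the Dusp5 difference was -0.045. Quantile normalization gave a median difference of -0.20. With the detection share as a covariate, an alternative chosen after seeing the data, it was -0.077, and 0.043 for HDM over control in IL-10- cells. The cause was not tested. Each group holds each replicate number once, so a replicate block leaves every fold change and the medians (-0.29, -0.61 and 0.07 for the sort, -0.15 and 0.39 for HDM, -0.58 for the difference) as they are and can move only the errors. With it 0 members were called in any comparison, and 39 genes in the averaged contrast and 23 in HDM mice. The sign was the same in every alternative for 23 of 36 members in the averaged contrast, 20 in HDM mice, 22 in control mice, 17 and 15 for HDM over control in IL-10+ and IL-10- cells, and 16 for the difference. Of the genes with the smallest p, Dusp5 alone turned its sign in the comparison it was named for. Dim signals limit Jund, Klf4, Nr4a2 and Ier3.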
